A study of Mus musculus with 8 samples.

Results

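The mouse mitochondrial genome encodes cytochrome b of respiratory complex III (mt-Cytb), the catalytic core subunits of cytochrome c oxidase (mt-Co1, mt-Co2 and mt-Co3) and a pair of membrane subunits of ATP synthase (mt-Atp6 and mt-Atp8). Their 6 mRNAs were followed in RNA of serum exosomes, the small vesicles that cells shed into blood, together with 4 near-identical pseudogenes on chromosome 1 (Gm29216, Gm28661, Gm28437 and Gm10925). The rows were taken by gene symbol, which gave 10 of the 52016 genes in the deposited table, and all 10 passed the filter on low values. Serum was drawn from NCr nu/nu mice, an athymic nude strain that lacks thymus-derived T cells and keeps its other blood cells, and exosomes were enriched with ExoQuick. At week 8, serum was pooled from mice that had received 100000 cells of the canine osteosarcoma (bone cancer) line OSCA-40 in the tibia, from mice given 100000 OSCA-32 cells, another line of the same cancer, and from mice given 10 µl of PBS alone. The earliest group, week 0, was pooled serum taken before any injection. Each of the 4 groups has 2 libraries. The labels do not say whether a pair of libraries stands for different animals or for repeats of 1 pool, so a p-value here measures spread that may be technical only.

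The respiratory chain passes electrons to oxygen through complexes embedded in the inner mitochondrial membrane, and ATP synthase uses the proton gradient that they build. These complexes are mosaics: a few subunits are made from mitochondrial mRNAs, and the others come from nuclear genes. Mitochondrial mRNAs are cut from long transcripts that span the circular genome, so neighbouring messages start out on 1 RNA. Pieces of mitochondrial DNA have also been copied into nuclear chromosomes during evolution, and such copies can be almost identical to the living gene.

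Sequence identity decides which of these 10 values can be read on their own, so the sequences are given first, from GENCODE M21 transcripts on GRCm38. Both ATP synthase messages lie on the plus strand of the mitochondrial genome and overlap by 43 bases, shown in capitals. The whole of mt-Atp8 (chrM:7766-7969) and the first 60 bases of mt-Atp6 (chrM:7927-7986) read:
mt-Atp8: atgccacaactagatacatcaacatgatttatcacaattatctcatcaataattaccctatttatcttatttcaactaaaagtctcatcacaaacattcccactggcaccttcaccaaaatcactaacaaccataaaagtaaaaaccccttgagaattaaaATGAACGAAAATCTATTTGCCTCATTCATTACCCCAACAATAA
mt-Atp6: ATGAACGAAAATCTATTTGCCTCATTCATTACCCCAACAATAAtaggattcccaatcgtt

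The copy of mt-Co1, Gm29216, is 492 bases long and matches the end of the 1545-base mRNA. Its start (chr1:24616138-24616197, minus strand) is shown beside bases 1054 to 1113 of mt-Co1 (chrM:6381-6440, plus strand), with every difference in capitals:
mt-Co1: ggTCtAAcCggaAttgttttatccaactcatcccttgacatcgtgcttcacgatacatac
Gm29216: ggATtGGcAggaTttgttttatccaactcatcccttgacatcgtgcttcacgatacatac
The 6 differences are T1056A, C1057T, A1059G, A1060G, C1062A and A1066T, with the mRNA's base first and positions counted from 1 at its 5′ end, and the rest of Gm29216 was identical to mt-Co1. The other copies differed from their mRNAs only in length. All 681 bases of Gm28661 were identical to mt-Co2, which has 684. All 783 bases of Gm28437 were identical to mt-Co3, which has 784, and all 678 bases of Gm10925 to mt-Atp6, which has 681. The ends are shown here, with capitals for the bases of the mRNA beyond the end of the annotated copy:
mt-Co2: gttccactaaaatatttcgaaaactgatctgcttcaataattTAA
Gm28661: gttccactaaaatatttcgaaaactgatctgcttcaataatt
mt-Co3: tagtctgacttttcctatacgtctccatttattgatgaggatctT
Gm28437: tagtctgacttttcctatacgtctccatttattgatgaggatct
mt-Atp6: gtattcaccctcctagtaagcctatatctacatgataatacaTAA
Gm10925: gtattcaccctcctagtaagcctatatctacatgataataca
These windows are chrM:7652-7696, chrM:9346-9390 and chrM:8563-8607 on the plus strand for the mRNAs, and chr1:24614885-24614926, chr1:24613189-24613232 and chr1:24613974-24614015 on the minus strand for the copies.

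Values were made with kallisto, which assigns reads by short words of sequence. Words of 31 bases were counted here, since the word length of the authors' index is not given in the sources used here. Of the 31-base words of mt-Cytb (chrM:14145-15288), 93.4% were found in no other listed mouse gene, and of those of mt-Atp8 92.5%. For mt-Co1 the share was 36.1%, for Gm29216 2.81%, for mt-Atp6 0.461% and for mt-Co3 0.133%. Neither mt-Co2, Gm28661, Gm28437 nor Gm10925 had a single word of its own. A read from inside mt-Co2, mt-Co3 or mt-Atp6 therefore cannot be told apart from a read of the copy, and the sum of each pair is the value that the mouse sequences allow. Canine transcripts were not searched. Words shared with canine mitochondrial genes were therefore not examined for mt-Cytb, the sums or any other row. Of the further nuclear copies, the values of those sharing most words were looked at: Gm13340 on chromosome 2 shares 45.2% of the words of mt-Co1 and was listed at 0 to 4, and Gm13341, also on chromosome 2, shares 47.1% of those of mt-Co2 and was listed at 0 to 7.

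**Figure D1:**
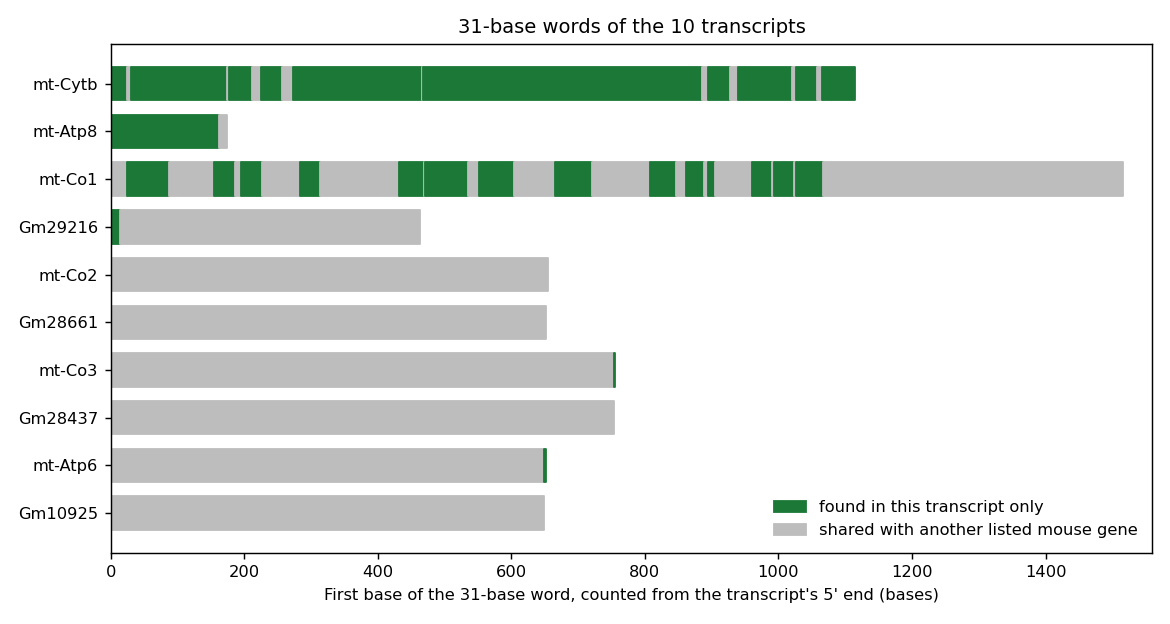
Words of 31 bases along each of the 10 transcripts, by the position of their first base in bases from the 5′ end; green words occur in that transcript only and grey words also occur in another listed mouse gene. mt-Cytb (93.4% green) and mt-Atp8 (92.5%) are mostly their own, mt-Co1 is mixed (36.1%), and the other rows are nearly or wholly grey.

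The deposited values are whole numbers per gene that sum to between 977106 and 989183 in every library over mouse and canine genes together. They behave as relative amounts within a library and were treated as corrected for length, which the sources used here do not state. The number of reads behind a value is unknown. Mouse genes held 31.6% and 29.3% of the OSCA-40 libraries, 55.3% and 56.7% of the OSCA-32 libraries, 85.3% and 84.8% of the PBS libraries and 83.9% and 82.6% of the week 0 libraries; canine genes held the rest. Judged by library totals, the median tested gene therefore differed by -1.51 (log2) between OSCA-40 and PBS, by -0.55 between OSCA-32 and PBS, by -0.95 between OSCA-40 and OSCA-32 and by 0.05 between PBS and week 0. Fold changes below are relative to that shift: libraries were first scaled to each other on the bulk of the genes, and the change is a log2 fold change of (scaled value + 1), ± SE. A gene was called when its adjusted p in limma, over all 7872 tested genes of both species, was under 0.05.

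The split between an mRNA and its copy varied from library to library even where the sum varied little. For mt-Atp6, a subunit of the proton channel of ATP synthase, the row of the mRNA was listed at 93 and 105 with OSCA-40, at 195 and 0 with OSCA-32, at 0 and 84 in PBS and at 0 and 44 at week 0. The row of Gm10925 was listed at 0 and 0 with OSCA-40, at 0 and 197 with OSCA-32, at 90 and 19 in PBS and at 36 and 0 at week 0. Each row was high in 1 library and at 0 in the other library of the OSCA-32 and of the week 0 group. Added together, mt-Atp6 and Gm10925 gave 93 and 105 with OSCA-40, 195 and 197 with OSCA-32, 90 and 103 in PBS and 36 and 44 at week 0. The libraries of a group then lay close together. The residual SD on the log2 scale was 3.83 for the row of mt-Atp6, larger than that of 99.99% of tested genes, and 0.14 for the sum, below the median of 0.30 over all genes.

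For mt-Co2, which carries the copper centre that receives electrons from cytochrome c, the split followed the groups. Its own row was listed at 9 and 4 with OSCA-40, at 106 and 122 with OSCA-32, at 67 and 84 in PBS and at 4 and 4 at week 0. Its copy Gm28661 was listed at 57 and 47 with OSCA-40, at 0 and 0 with OSCA-32, at 0 and 1 in PBS and at 24 and 28 at week 0. The mRNA row thus held 13.6% and 7.84% of the pair with OSCA-40, 100% in both OSCA-32 libraries, 100% and 98.8% in PBS, and 14.3% and 12.5% at week 0. Since both libraries of each group split the same way, the residual SD of the row of mt-Co2 (0.38) was near the median, and a test of that row alone gave calls that the sum did not share.

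For mt-Co3, the third core subunit, the sum with Gm28437 was 10 and 12 with OSCA-40, 42 and 34 with OSCA-32, 22 and 20 in PBS and 5 and 5 at week 0. The row of mt-Co3 was listed at 0 and 12 with OSCA-40, at 1 and 18 with OSCA-32, at 22 and 20 in PBS and at 5 and 2 at week 0. The row of Gm28437 was listed at 10 and 0 with OSCA-40, at 41 and 16 with OSCA-32, at 0 and 0 in PBS and at 0 and 3 at week 0. The row of mt-Co3 thus held between 0% and 100% of that sum, with 1 library at each extreme within OSCA-40. mt-Co1 carries the haem and copper site where oxygen is reduced. Its row was listed at 23 and 20 with OSCA-40, at 75 and 69 with OSCA-32, at 55 and 53 in PBS and at 17 and 18 at week 0, and Gm29216 at 21 and 33, 25 and 28, 8 and 24, and 6 and 6 in the same groups. The row of mt-Co1 held 52.3% and 37.7% of the pair with OSCA-40, below the 68.8% to 87.3% of the other libraries. Gm29216 is shorter than mt-Co1. If the values are corrected for length, as they were treated here, this sum is not the amount of a single transcript.

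**Figure D2:**
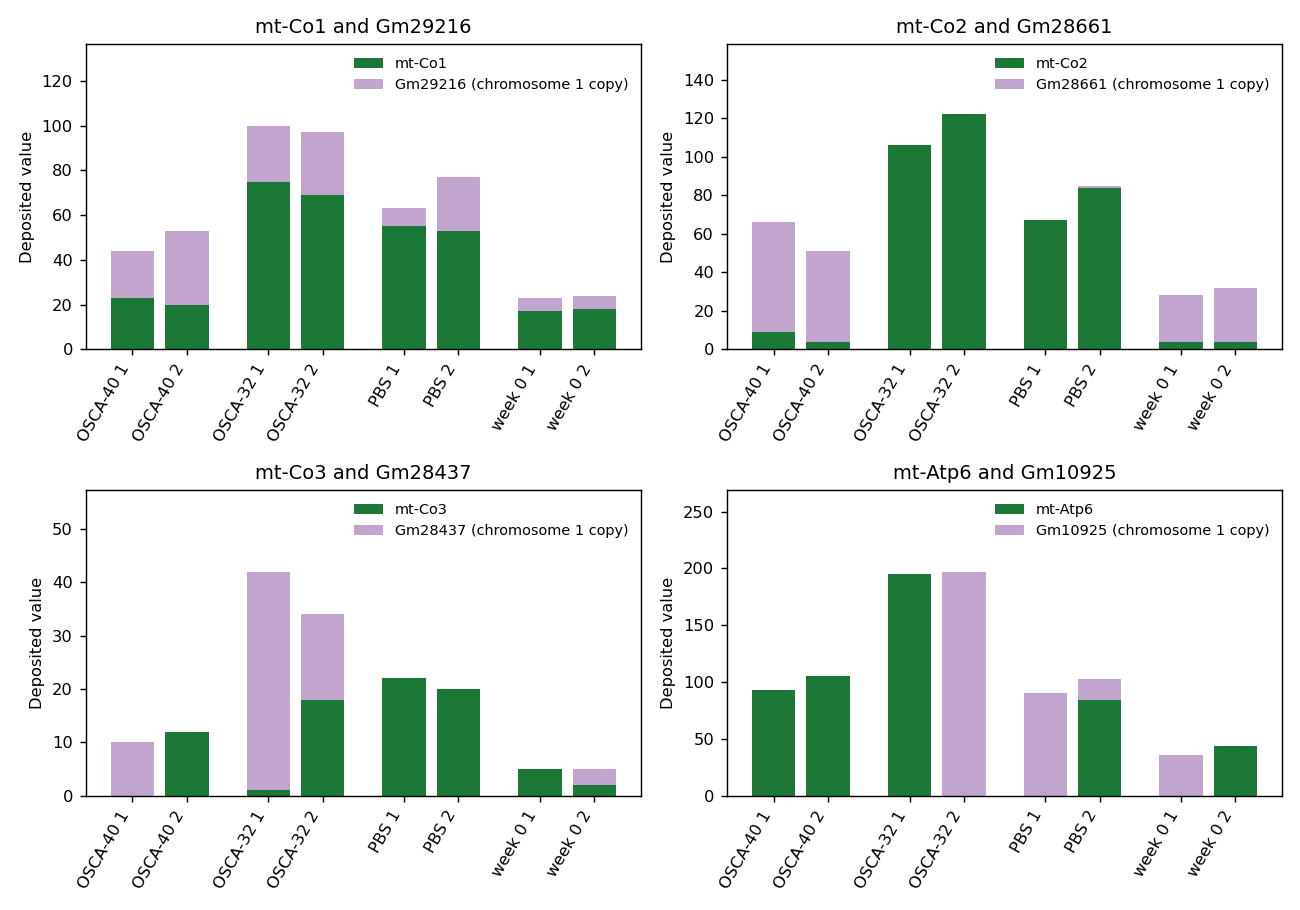
Deposited value in each of the 8 libraries for the 4 pairs, with the mRNA in green and its chromosome 1 copy stacked on it in purple. mt-Co2 gives way to Gm28661 in the OSCA-40 and week 0 libraries, and mt-Atp6 and Gm10925 exchange places between the libraries of a group (195 and 0, against 0 and 197, with OSCA-32).

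mt-Cytb, the only mitochondrially encoded subunit of complex III, has no copy among the chromosome 1 pseudogenes and is read without a sum. It was listed at 33 and 30 with OSCA-40, at 75 and 60 with OSCA-32, at 35 and 43 in PBS and at 14 and 13 at week 0. After scaling it averaged 66.5 ± 2.48 with OSCA-40, 68.1 ± 12.0 with OSCA-32, 26.2 ± 3.57 in PBS and 9.43 ± 0.610 at week 0 (SD, n = 2 each). On that scale the tumour groups overlapped each other, both lay above PBS, and PBS lay above week 0, whereas as deposited both OSCA-40 libraries lay below both PBS libraries. For this and later orderings of libraries, the share of all tested genes ordered in the same way was not counted. In bulk vesicle RNA, fewer cells or vesicles of a type and less RNA in each cannot be told apart.

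After scaling, the libraries of PBS lay between those of the tumour groups and week 0 for each of the 4 sums. mt-Atp6 with its copy averaged 209 ± 24.2 with OSCA-40, 197 ± 2.44 with OSCA-32, 64.9 ± 5.60 in PBS and 27.9 ± 3.61 at week 0 (SD, n = 2 each). mt-Co2 with its copy averaged 123 ± 18.7 with OSCA-40, 115 ± 9.15 with OSCA-32, 51.1 ± 8.11 in PBS and 20.9 ± 1.72 at week 0. mt-Co1 with its copy averaged 103 ± 16.5, 99.2 ± 4.08, 47.1 ± 6.24 and 16.4 ± 0.291 in OSCA-40, OSCA-32, PBS and week 0. These sums had OSCA-40 and OSCA-32 libraries that overlapped. mt-Co3 with its copy, the lowest of the sums, averaged 23.3 ± 3.69, 38.3 ± 6.45, 14.1 ± 1.08 and 3.49 ± 0.0431 in the same groups, and its OSCA-40 libraries lay below both OSCA-32 libraries. mt-Atp8 was the member with the widest spread within groups among those read without a sum, at 71.6 ± 12.8, 73.3 ± 32.1, 61.5 ± 18.0 and 16.1 ± 2.17. In every library the sum of mt-Atp6 and its copy was above that of mt-Co2 and its copy, which was in turn above mt-Cytb, and mt-Co3 with its copy was the lowest of these.

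**Figure D3:**
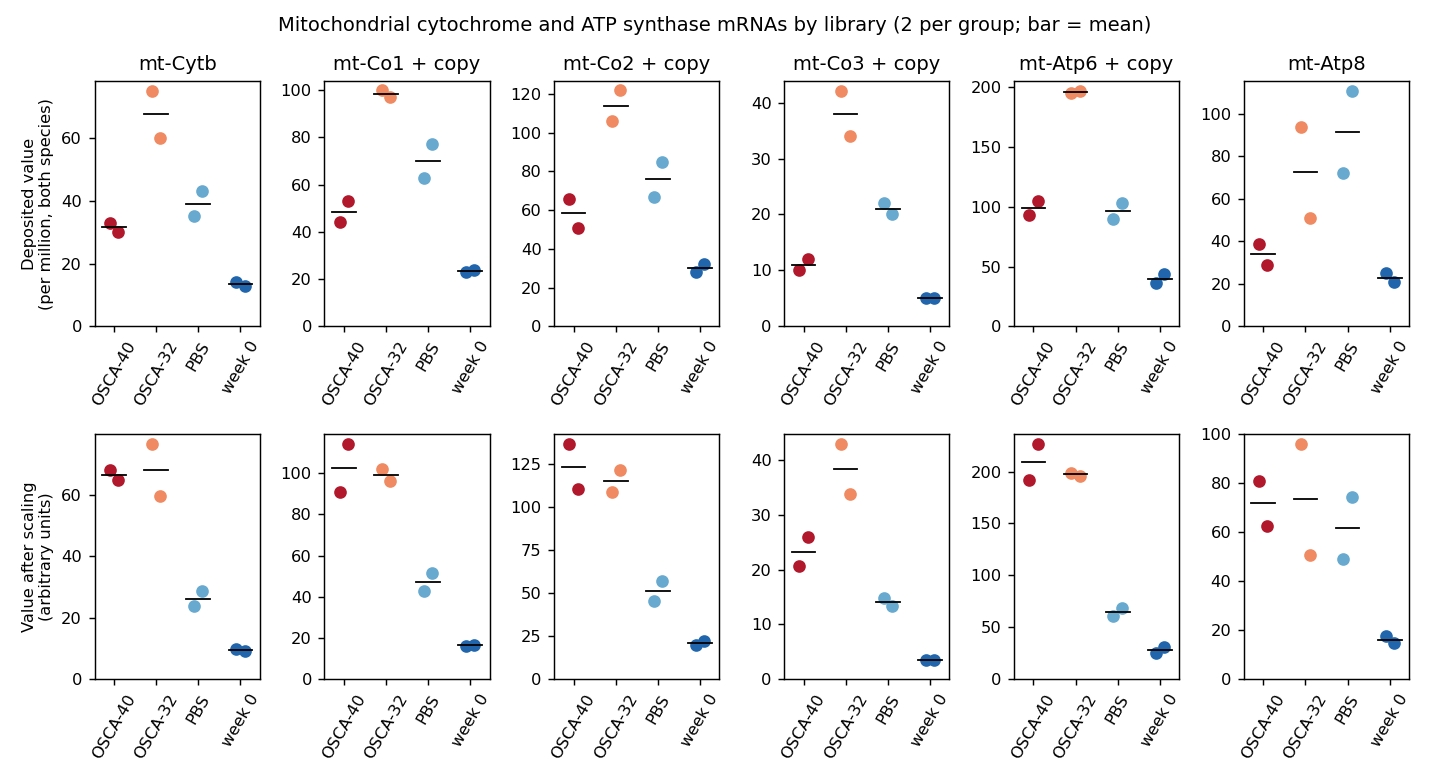
Values of mt-Cytb, the 4 sums and mt-Atp8 in each library, with 2 points per group and a bar at their mean; the upper row is the deposited value and the lower row the value after scaling. As deposited, OSCA-32 is highest in all but mt-Atp8 and OSCA-40 lies near or below PBS; after scaling, both tumour groups lie above PBS in mt-Cytb and the 4 sums, and week 0 is lowest throughout.

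Mice given OSCA-40 were compared with those given PBS to see what differed in serum exosomes after that graft. With copies summed, 3 of 4 pairs rose relative to the bulk of genes, where 4.45% of all tested genes rose; by library totals alone none rose and 2, those of mt-Co1 and mt-Co3, passed as lower. mt-Atp6 with Gm10925 rose by 1.67 ± 0.13 (adjusted p = 0.000344, limma), mt-Co2 with Gm28661 by 1.25 ± 0.16 (adjusted p = 0.00375, limma) and mt-Co1 with Gm29216 by 1.10 ± 0.15 (adjusted p = 0.00475, limma). mt-Co3 with Gm28437, at 0.68 ± 0.20, did not pass (adjusted p = 0.11, limma). mt-Cytb rose by 1.31 ± 0.17 (adjusted p = 0.00384, limma), and mt-Atp8, at 0.24 ± 0.33, did not pass. Read row by row, 3 of the 10 rows passed as higher, where 4.43% of all genes did: mt-Cytb, Gm28661, and Gm29216 at 2.44 ± 0.44 (adjusted p = 0.0191, limma). The row of mt-Co1 alone, with 36.1% of its words its own, stood at 0.31 ± 0.12 and did not pass (adjusted p = 0.21, limma). If the values are corrected for length, its sum with the shorter Gm29216 is not the amount of a single transcript. The rows of mt-Co3, mt-Atp6, mt-Atp8, Gm28437 and Gm10925 passed in none of the 4 comparisons. The row of mt-Co2 passed as lower, at -1.91 ± 0.31 (adjusted p = 0.0120, limma), where 2.34% of all genes did, whereas the sum with its identical copy was higher. The calls of the 3 sums and of mt-Cytb held without each of the 8 libraries. The row of mt-Co2 lost its call without either PBS library (-2.05 and -1.75), and Gm29216 without the second OSCA-40 library (2.10). By library totals alone the direction turned for mt-Cytb (-0.31) and for the sums of mt-Co1 (-0.54), mt-Co2 (-0.39) and mt-Co3 (-0.89), and the sum of mt-Atp6 stood at 0.02.

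Mice given OSCA-32 were set against the PBS mice in the same way. All 4 sums rose, where 0.966% of all tested genes rose. mt-Atp6 with Gm10925 rose by 1.59 ± 0.13 (adjusted p = 0.00150, limma), mt-Co3 with Gm28437 by 1.37 ± 0.20 (adjusted p = 0.0282, limma), mt-Co2 with Gm28661 by 1.16 ± 0.16 (adjusted p = 0.0190, limma) and mt-Co1 with Gm29216 by 1.06 ± 0.15 (adjusted p = 0.0193, limma). mt-Cytb rose by 1.34 ± 0.17 (adjusted p = 0.0126, limma), and mt-Atp8, at 0.21 ± 0.33, did not pass. Here both OSCA-32 libraries lay above both PBS libraries for mt-Cytb and the 4 sums in the deposited values as well, which for OSCA-40 held for none of them. The share of all tested genes that separated in this way was not counted. Of the single rows only mt-Cytb and mt-Co1 passed, both as higher, where 0.902% of all genes did, and the row of mt-Co3 had the opposite sign to its sum, at -1.29 ± 1.57. The sum of mt-Atp6 kept its call without each of the 8 libraries; the number of sums called was 1 without either PBS library, either OSCA-32 library or the first week 0 library, and 2 without the second. mt-Cytb did not pass without the first or second PBS library or the first OSCA-32 library, and the row of mt-Co1 without those or the second OSCA-32 library, with values of 0.90 to 1.05 for mt-Co1 and 1.16 to 1.52 for mt-Cytb over the 8 libraries left out. By library totals alone 2 sums passed, those of mt-Atp6 (1.01) and mt-Co3 (0.81), and every sum stayed higher.

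The comparison of OSCA-40 with OSCA-32 set the tumour lines against each other. No sum passed in limma; 1 of 4, mt-Co3 with its copy, had an unadjusted p under 0.05, as lower with OSCA-40, and in the same fit 2.69% of all genes were called. The difference was 0.08 for mt-Atp6 with its copy (95% interval -0.22 to 0.38), 0.10 for mt-Co2 with its copy (-0.27 to 0.47) and 0.04 for mt-Co1 with its copy (-0.30 to 0.38). It was -0.69 for mt-Co3 with its copy (-1.17 to -0.22, adjusted p = 0.148, limma) and -0.02 ± 0.17 for mt-Cytb. By library totals alone all 4 sums passed as lower with OSCA-40. Row by row, 3 of 10 passed, where 2.73% of all genes did. mt-Co1, at -0.67 ± 0.12, and mt-Co2, at -3.07 ± 0.31, passed as lower, where 0.965% of all genes did. Gm28661 passed as higher, where 1.77% of all genes did; it was listed at 57 and 47 with OSCA-40 and at 0 in both OSCA-32 libraries. The row of mt-Co1 lost its call without each of the 8 libraries, with values of -0.74 to -0.59, and that of mt-Co2 without the second OSCA-32 library (-2.99).

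The comparison of PBS at week 8 with week 0 set serum drawn after a PBS injection against serum drawn before any injection, without tumour cells in either group. Time and the injection cannot be told apart in it. All 4 sums rose, where 0.089% of all tested genes rose, so that they made up 4 of the 7 genes called higher. mt-Co3 with Gm28437 rose by 1.75 ± 0.20 (adjusted p = 0.0346, limma), mt-Co1 with Gm29216 by 1.46 ± 0.15 (adjusted p = 0.0256, limma), mt-Co2 with Gm28661 by 1.24 ± 0.16 (adjusted p = 0.0481, limma) and mt-Atp6 with Gm10925 by 1.19 ± 0.13 (adjusted p = 0.0322, limma). mt-Cytb rose by 1.38 ± 0.17 (adjusted p = 0.0421, limma), and mt-Atp8 had 1.85 ± 0.33, which did not pass (adjusted p = 0.199, limma). Both PBS libraries lay above both week 0 libraries for mt-Cytb, mt-Atp8 and every sum, as deposited and after scaling, and these mice received no canine cells. How many of all tested genes separated in the same way was not counted. Row by row, mt-Co1, mt-Co2 and mt-Cytb passed as higher, where 0.0635% of all genes did. Gm28661 passed as lower, listed at 0 and 1 in PBS and at 24 and 28 at week 0, where 0.102% of all genes did. The row of mt-Co2 rose by 3.76 ± 0.31, more than its sum. The calls were close to the threshold: of the sums, 1 (mt-Co1 with its copy) passed when either OSCA-40 library was left out and 0 when any other library was, and mt-Cytb lost its call whichever of the 8 was left out. The direction stayed higher for every sum and for mt-Cytb each time. The row of mt-Co1 lost its call without any 1 of the PBS or week 0 libraries, that of mt-Co2 without any 1 of these or of the OSCA-32 libraries, and Gm28661 without either week 0 library, the first PBS library or either OSCA-40 library.

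**Figure D4:**
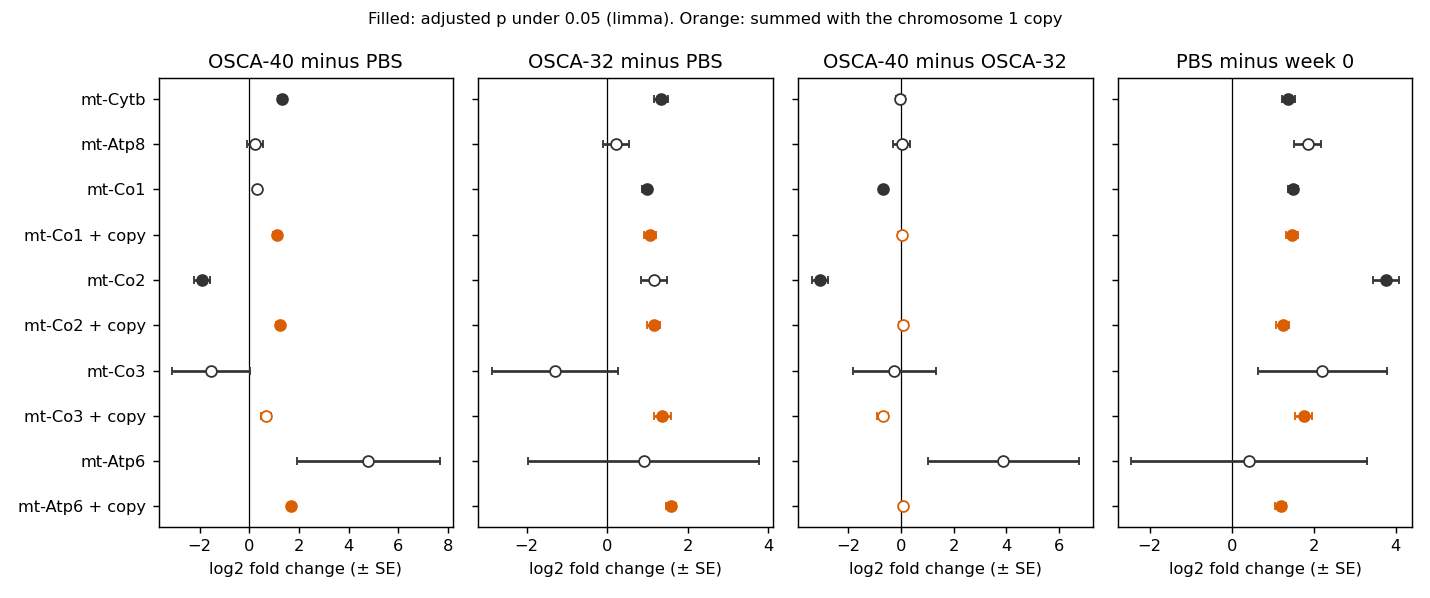
Log2 fold change ± SE in the 4 comparisons for mt-Cytb, mt-Atp8 and each of the other mRNAs, alone (black) and summed with its chromosome 1 copy (orange); filled points passed an adjusted p of 0.05 in limma. The row of mt-Co2 lies far from its sum in 3 comparisons (-1.91 alone and 1.25 summed in OSCA-40 against PBS), and in that comparison the 4 sums lie between 0.68 and 1.67, above 0 after this scaling, and by library totals between -0.89 and 0.02.

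**Figure D5:**
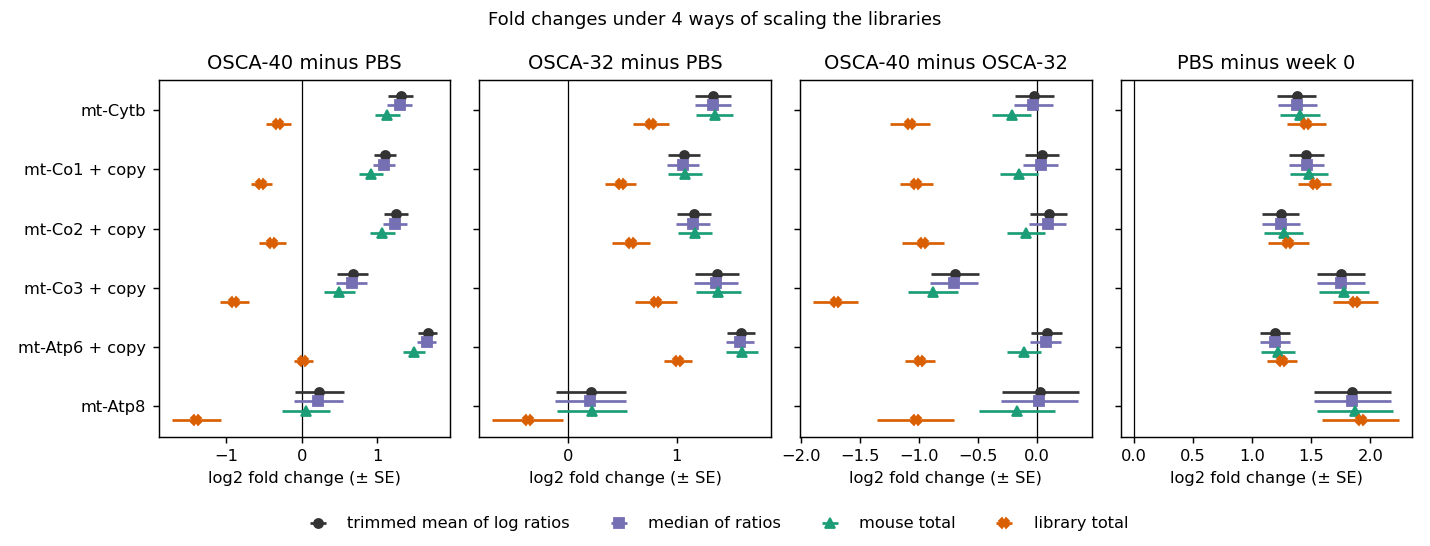
Log2 fold change ± SE of mt-Cytb, the 4 sums and mt-Atp8 in the 4 comparisons under 4 ways of scaling libraries (colours and symbols). In OSCA-40 against PBS, mt-Co1 with its copy stands at 1.10 with trimmed ratios, 1.09 with the median of ratios, 0.92 with the mouse total and -0.54 with library totals, while in PBS against week 0 it stands at 1.46, 1.46, 1.48 and 1.53.

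Ratios between genes of 1 library do not depend on the scaling. The 10 rows summed to 285 and 280 with OSCA-40, 612 and 561 with OSCA-32, 349 and 439 in PBS and 131 and 139 at week 0. The nuclear-encoded subunits of complex III, cytochrome c oxidase and ATP synthase, with cytochrome c, form a list of 44 genes. They summed to 200 and 175 with OSCA-40, 315 and 303 with OSCA-32, 491 and 443 in PBS and 423 and 450 at week 0. The ratio of the sum of the 10 rows to the nuclear sum was 1.425 and 1.60 with OSCA-40, 1.94 and 1.85 with OSCA-32, 0.711 and 0.991 in PBS and 0.310 and 0.309 at week 0. All tumour libraries lay above both PBS libraries, and both PBS libraries above week 0. The 10 rows include chromosome 1 copies, whereas copies of the nuclear-encoded genes were neither searched for nor added. The nuclear sum also includes genes too low for the filter, which 17 of the 44 passed.

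The members were also set against each other within each library. The ratio of mt-Atp6 with its copy to mt-Cytb ranged from 2.40 to 3.50 over the 8 libraries, that of mt-Co2 with its copy from 1.41 to 2.46 and that of mt-Co1 with its copy from 1.33 to 1.85. For mt-Atp6 with its copy every tumour library (2.60 to 3.50) lay above both PBS libraries (2.57 and 2.40), but week 0 (2.57 and 3.38) overlapped the tumour libraries. For mt-Co1 with its copy every tumour library (1.33 to 1.77) lay below both PBS libraries (1.80 and 1.79), but week 0 (1.64 and 1.85) again overlapped the tumour libraries. The gaps to PBS were narrow. For mt-Co2 with its copy the tumour libraries overlapped those of PBS, which lay below both week 0 libraries. mt-Co3 with its copy was 0.303 and 0.400 of mt-Cytb with OSCA-40, 0.560 and 0.567 with OSCA-32, 0.629 and 0.465 in PBS and 0.357 and 0.385 at week 0. The OSCA-40 and week 0 libraries were the lower ones. mt-Atp8, which shares its transcript with mt-Atp6, was 0.419 and 0.276 of mt-Atp6 with its copy in OSCA-40, 0.482 and 0.259 in OSCA-32, 0.800 and 1.08 in PBS and 0.694 and 0.477 at week 0. Every tumour library was below both PBS libraries in that ratio, but week 0 (0.694 and 0.477) overlapped the tumour libraries. At 204 bases mt-Atp8 is the shortest of the 6 mRNAs. On the scaled log2 values, correlations over the 8 libraries, which come in 4 groups of 2, were 0.94 to 0.99 among mt-Cytb and the 4 sums and 0.83 to 0.90 between mt-Atp8 and these.

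The mitochondrially encoded subunits of complex I, the entry point of the chain, were read in the same libraries. Of these 7 mRNAs, 4 passed as higher with OSCA-40 against PBS, where 4.43% of all genes did, and the same number with OSCA-32 against PBS, where 0.902% did, with median changes of 1.34 and 1.50. They were mt-Nd2 (1.01 with OSCA-40 and 1.64 with OSCA-32), mt-Nd4 (1.45 and 1.50), mt-Nd5 (1.34 and 1.53) and mt-Nd6 (1.78 and 1.87). These changes are after scaling: as deposited, mt-Nd2 (26 and 19 with OSCA-40, against 38 and 30 in PBS) and mt-Nd5 (32 and 37, against 38 and 46) were lower with OSCA-40, and mt-Nd4 and mt-Nd6 overlapped. None passed in PBS against week 0 (limma, 5 of 7 had an unadjusted p under 0.05, all higher, median 0.96). With OSCA-40 against OSCA-32, mt-Nd1 passed as lower, at -1.14 ± 0.21, where 0.965% of all genes did. The 10 rows were 1.56 and 1.87 times the complex I sum with OSCA-40, 1.36 and 1.42 times with OSCA-32, 1.33 and 1.58 times in PBS and 1.27 and 1.45 times at week 0. Both OSCA-40 libraries lay above both OSCA-32 and both week 0 libraries and overlapped those of PBS. This ratio has a limit: the 10 rows include chromosome 1 copies, whereas copies of the complex I mRNAs were not searched for. The row of mt-Nd3 was listed at 18 and 7 with OSCA-40, 0 and 17 with OSCA-32, 14 and 0 in PBS and 0 and 0 at week 0. That of mt-Nd4l was listed at 11 and 0, 0 and 47, 67 and 80, and 20 and 0 in the same groups. Whether reads of these rows were assigned elsewhere was not tested.

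Of the 44 nuclear-encoded partners, 17 passed the filter on low values, and none was called in any of the 4 comparisons in limma. At an unadjusted p under 0.05, 2 were higher and 1 lower with OSCA-40 against PBS, 1 was lower with OSCA-32 against PBS, 2 were higher with OSCA-40 against OSCA-32 and 0 differed between PBS and week 0. Their median change was 0.27 with OSCA-40 against PBS, -0.11 with OSCA-32 against PBS, 0.22 with OSCA-40 against OSCA-32 and -0.03 in PBS against week 0. The median over all tested genes was within 0.02 of 0 in each comparison. Cox4i1, a regulatory subunit of cytochrome c oxidase and the most abundant of its list, was listed at 54 and 31 with OSCA-40, 69 and 83 with OSCA-32, 85 and 89 in PBS and 90 and 82 at week 0. Atp5b, the catalytic beta subunit of ATP synthase, was listed at 11 and 15, 27 and 13, 41 and 42, and 40 and 37 in the same groups, and Uqcrb, a subunit of complex III, at 5 and 3, 10 and 6, 15 and 6, and 15 and 14. For Atp5b the scaled change was -0.04 ± 0.33 with OSCA-40 and -0.54 ± 0.33 with OSCA-32 against PBS, neither of which passed. None of the 11 tested genes for assembly of complexes III and IV and ATP synthase was called in any comparison (limma; 1 was lower at an unadjusted p under 0.05, with OSCA-40 against PBS), among them Ttc19 and Uqcc1, both complex III assembly factors. Of the 10 tested genes of mitochondrial transcription and mRNA stability none was called either (limma; 1 lower with OSCA-32 and 1 higher with OSCA-40, each against PBS, at an unadjusted p under 0.05). Mterf3, a mitochondrial transcription termination factor family member and the highest of that list, was listed at 158 and 171 with OSCA-40, 290 and 279 with OSCA-32, 414 and 324 in PBS and 362 and 337 at week 0. Its scaled change was 0.49 ± 0.13 with OSCA-40 against PBS (adjusted p = 0.0774, limma) and 0.22 ± 0.13 with OSCA-32 against PBS. Lrpprc, which stabilises mitochondrial mRNAs and was next in level, stood at 0.15 ± 0.21 with OSCA-40 and 0.09 ± 0.21 with OSCA-32 against PBS.

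Mitochondrially encoded genes, their chromosome 1 copies and predicted genes were left out of a search for like patterns. Among the other 6336 tested mouse genes, Snap25, a synaptic vesicle fusion protein, and Klhl7, an adaptor of ubiquitin ligases, were the most like both mt-Co1 with its copy and mt-Cytb over the 8 libraries. Pearson's r was 0.98 and 0.97 with mt-Co1 and its copy and 0.97 and 0.96 with mt-Cytb. Snap25 was listed at 12 and 14 with OSCA-40, 26 and 24 with OSCA-32, 22 and 30 in PBS and 16 and 17 at week 0. These are descriptions over libraries that share their groups and scaling.

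Markers of the vesicles and of other blood or tissue cells were read beside these results. Sums in this paragraph are of deposited values and carry the shift between libraries, whereas calls are after scaling. Of all genes, 4.43% passed as higher and 2.34% as lower with OSCA-40 against PBS. With OSCA-40 against OSCA-32 these shares were 1.77% and 0.965%, and 0.102% passed as lower in PBS against week 0. Of 14 exosome genes, 13 or 14 were above 0 in every library, with summed values of 64 and 63 with OSCA-40, 187 and 196 with OSCA-32, 325 and 318 in PBS and 296 and 352 at week 0. Of the 7 tested, the tetraspanin Cd9 passed as lower with OSCA-40 against PBS (-1.20 ± 0.11) and against OSCA-32 (-0.94 ± 0.11). Of the platelet list, Nrgn was at 0 throughout; the 15 genes summed to 169 and 148 with OSCA-40, 180 and 179 with OSCA-32, 230 and 196 in PBS and 189 and 194 at week 0, and 2 of the 4 tested, Pf4 and Ppbp, passed as higher with OSCA-40 against PBS, Pf4 also against OSCA-32. Of the 12 hepatocyte genes, which summed to 61 and 67, 80 and 72, 68 and 89, and 78 and 77 in the same groups, 2 of 3 tested, Alb and Trf, passed as higher with OSCA-40 against PBS. The 13 erythroid genes summed to 273 and 300, 296 and 311, 358 and 391, and 490 and 531. Of the 8 tested, Hba-a2 passed as higher with OSCA-40 against PBS and against OSCA-32 and as lower in PBS against week 0. The 12 striated muscle genes summed to 94 and 78, 132 and 136, 172 and 188, and 161 and 174, and 1 of 6 tested, Actn2, passed as higher with OSCA-40 against PBS and against OSCA-32. No tested gene of the neutrophil and monocyte or lymphocyte lists was called in the 4 comparisons (limma; 1, as lower with OSCA-40 against OSCA-32, had an unadjusted p under 0.05). The part of these cells in the mitochondrial values was not tested.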

How the data were processed

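RNA of serum exosomes was prepared as libraries with a SMARTer stranded kit for very small inputs, per the labels' protocols. Per the submitters' processing notes, reads were checked with FastQC 0.11.5, trimmed with Trimmomatic 0.33.0 and quantified with kallisto 0.43.0; the builds named are GRCm38.p5 (mouse) and CanFam3.1 (dog), and no annotation release was found. The deposited values carry the name counts, but library totals are almost equal, so they were treated as a score that behaves as TPM made whole. Over 7638 mouse genes, Spearman's rho between value and transcript length was 0.17. Depth cannot be read from such values, and no counting interval is given.

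Tested genes reached 10 or more in 2 or more libraries (7655 of mouse, 217 of dog). Scaling used an unweighted trimmed mean of log ratios (30% of ratios and 5% of levels trimmed at each end) against library 1 of week 0. limma 3.58.1 in R 4.3.3 fitted log2(scaled value + 1) with 1 mean per group over all 8 libraries and a variance trend, leaving 4 residual degrees of freedom, and Benjamini-Hochberg adjustment ran over all tested genes of a comparison. The procedure was tested on simulated data. For the sums, each mRNA and its copy were added in the deposited table before filtering, which left 7868 genes. Members, lists and rules were chosen with earlier results of these data known. Every member is named; of each pathway list, called genes or up to 2 with the highest mean; by likeness, those among the 5 most alike that were nearest to both mt-Co1 and mt-Cytb. Alternatives were other scalings, filters, pseudocounts and fits, mouse genes only, a replicate block and leaving out each library; scaling by the mouse total was added after seeing the data. Names and coordinates come from GENCODE M21.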

Additional observations from a re-analysis of the deposited data

Results flagged for a closer look

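Between the tumour lines, 3 rows differed when read without their partners, each by a test of the difference itself in limma. mt-Co1 was listed at 23 and 20 in OSCA-40 libraries, against 75 and 69 in OSCA-32 libraries as deposited; the test is of the scaled difference, -0.67 ± 0.12 (adjusted p = 0.0402, limma). That call was lost without each of the 8 libraries, without a variance trend, with the groups compared alone and with mouse genes only. mt-Co2 was listed at 9 and 4 in OSCA-40 libraries, against 106 and 122 in OSCA-32 libraries as deposited, a scaled difference of -3.07 ± 0.31 (adjusted p = 0.00425, limma), which did not pass without the second OSCA-32 library. Gm28661, the copy of mt-Co2, was listed at 57 and 47 in OSCA-40 libraries, against 0 and 0 in OSCA-32 libraries (adjusted p = 0.000422, limma). Summed with their copies, mt-Co1 and mt-Co2 differed by 0.04 and 0.10 on the log2 scale, and neither passed. For mt-Co1 the sum adds a shorter transcript, and 36.1% of the words of mt-Co1 are its own. Its sum therefore does not settle the difference seen in its row.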

How the results depend on the processing

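Among 1032 single values under an alternative, 828 kept their direction and side of the threshold, 151 lost a call, 8 gained one and 45 turned direction; of the counts, 102 of 152 stayed within 1.5 times. In the order OSCA-40 against PBS, OSCA-32 against PBS, OSCA-40 against OSCA-32 and PBS against week 0, the rows called were 4, 2, 3 and 4 and the sums 3, 4, 0 and 4. Leaving out each library gave 3 to 4, 0 to 3, 1 to 2 and 0 to 2 rows, and 3, 1 to 4, 0 and 0 to 1 sums. Library totals gave 5 rows and 4 sums between the tumour lines, 2 sums for OSCA-32 against PBS and, in the opposite direction, 2 sums for OSCA-40 against PBS. Without a filter the rows were 0 for OSCA-32 against PBS and 0 for PBS against week 0, and the sums 1 and 0 there and 1 between the lines. A mean of at least 50 left only the rows of mt-Co2 (mean 50), mt-Atp6 (65.1) and mt-Atp8 (55.25) in the test, and gave 1, 0, 1 and 2 rows. The other rows and the sum of mt-Co3 (mean 18.75) were not tested under that filter, so they could not be called. In PBS against week 0, mt-Atp8 gained a call there. With the groups compared alone the rows were 2 for OSCA-40 against PBS, 0 for OSCA-32 against PBS and 0 for PBS against week 0, and the sums 1 and 0 for the last 2 of these. Without a variance trend OSCA-32 against PBS had 0 rows and 1 sum, and PBS against week 0 had 1 row and 0 sums. A pseudocount of 4 gave 2 sums in PBS against week 0.

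The replicate block also gave 2 sums in PBS against week 0, and no other count moved by over 1.5 times. It ended the calls of mt-Cytb (adjusted p = 0.109, limma) and the sums of mt-Co2 (0.11) and mt-Co3 (0.107) in PBS against week 0, of the sum of mt-Co3 in OSCA-32 against PBS (0.0672) and of the row of mt-Co1 between the lines (0.0705), and changed no other call. The labels do not say that replicate numbers pair libraries, and same-numbered differences correlated at -0.06 to 0.01 between groups.

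By library totals, direction turned in OSCA-40 against PBS for mt-Co1 (-1.31), mt-Cytb (-0.31), mt-Atp8 (-1.40) and the sums of mt-Co1 (-0.54), mt-Co2 (-0.39) and mt-Co3 (-0.89), in OSCA-32 against PBS for mt-Atp8 (-0.37), and between the lines for mt-Atp8 (-1.03), Gm29216 (-0.013) and the sums of mt-Co1 (-1.02), mt-Co2 (-0.97) and mt-Atp6 (-0.99). Between the lines it also turned by the mouse total for mt-Atp8 (-0.17) and the sums of mt-Co1 (-0.15), mt-Co2 (-0.10) and mt-Atp6 (-0.11), without a filter for the same values (-0.21, -0.20, -0.14 and -0.16), with a mean of at least 50 for mt-Atp8 (-0.026) and the sum of mt-Co1 (-0.012), and with a pseudocount of 4 for mt-Co3 (0.061). Without a filter mt-Atp8 stood at -0.0032 in OSCA-40 against PBS. The cause was not tested.

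With each library left out, direction turned in OSCA-40 against PBS for mt-Co3 (-4.07 to 0.83) and mt-Atp8 (-0.063 to 0.53). It turned in OSCA-32 against PBS for mt-Co3 (-2.90 to 0.32), mt-Atp6 (-2.92 to 4.73), mt-Atp8 (-0.24 to 0.66) and Gm10925 (-4.86 to 2.75), and in PBS against week 0 for mt-Atp6 (-2.45 to 3.31). Between the lines it turned for mt-Co3 (-2.74 to 2.16), mt-Cytb (-0.20 to 0.15), mt-Atp8 (-0.43 to 0.48) and the sums of mt-Co1 (-0.12 to 0.20), mt-Co2 (-0.057 to 0.25) and mt-Atp6 (-0.037 to 0.20). With 1 library left in a group, that library is assumed to vary like the others. The depth behind the values is unknown, so low values such as those of mt-Co3 carry a rounding and counting error that cannot be given.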
